A study of Mus musculus with 12 samples.

Results

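The genes described here are 10 genes of tissue repair in the lung. Tnc, Fn1, Postn, Spp1 and Thbs1 encode secreted proteins of the provisional matrix, Lox and Loxl2 encode enzymes that crosslink it, and Plau, Plat and Plaur encode 2 plasminogen activators and a receptor of this system. They were taken by symbol, with the probe set of each gene chosen by its highest mean signal over the 12 arrays, and all 10 listed symbols were found among the 21585 genes measured. Loxl2 had 2 probe sets, with means over the 12 arrays of 5.57 and 3.93, and the brighter was used. The other 9 genes had 1 probe set each.

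The arrays measured lung RNA from female mice on a C57BL/6 background that came at 6 weeks of age and were kept for 4 weeks, so that they were studied at 10 weeks. Ozone (O3) was given at 2 ppm for 3 h. The db/db mice made up 3 arrays with anti-IL-17A antibody and O3, 4 arrays with an isotype control antibody and O3, and 4 arrays with the isotype antibody in room air, and a wildtype (WT) mouse with the isotype antibody and O3 made up 1 array. Lungs were taken 24 h after exposure. The dose and time of the antibodies are not given in the sources used here. Mice of the db/db genotype are obese because the leptin receptor is missing in its long form, and all 11 db/db arrays share this defect, so that the O3 and antibody comparisons were made within obese mice only. The anti-IL-17A arrays are replicates 1, 2 and 4 in the labels. The labels do not say that each array was a separate mouse, so p-values measure the spread between these arrays, which may be partly technical. No air array of WT mice and no anti-IL-17A array in air was analysed here.

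When the barrier between air and blood of the lung is injured, plasma fibrin and fibronectin fill the gap as a provisional matrix on which epithelial cells migrate. Matricellular proteins such as tenascin C, thrombospondin 1, osteopontin and periostin are added to this matrix and act on cells through integrins and other receptors more than as structural fibres. Urokinase and tissue plasminogen activator convert plasminogen to plasmin, which dissolves fibrin, while lysyl oxidases join collagen and elastin chains so that the matrix resists breakdown.

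Values are log2 RMA signals, in which a difference of 1 is a doubling. RMA corrects the background of an array, brings all arrays to a common distribution and summarises the probes of a gene. The array medians lay between 4.75 and 4.90. The level of a probe set depends on its probes, so levels were compared between arrays and not between genes. Anti-IL-17A replicate 1 stood apart from the rest, with a mean correlation of 0.947 with the other arrays, where the other 11 had 0.972 to 0.982. Ucp1, the uncoupling protein of brown fat, was at 10.12 to 10.53 in 3 arrays (anti-IL-17A replicate 1, isotype O3 replicate 4 and air replicate 3) and at 5.08 or less in the other 9. Whole lung RNA was measured, so that more cells of a type cannot be told apart from more RNA per cell.

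The first comparison asked how O3 changed these genes in db/db mice under the isotype antibody. The list was chosen by genes whose O3 minus air differences in these arrays were already known, so the values below are a description and their tests support nothing about the list. Tnc and Plau rose, and 7 of the other 8 genes had positive differences that did not pass an adjusted p under 0.05 (limma with Benjamini-Hochberg adjustment over all 21585 genes). Thus 2 of the 10 genes were called higher, against 129 of all genes (0.598%), and 0 were called lower, against 96 of all genes (0.445%). In 5 of the 10 genes (Tnc, Lox, Thbs1, Plaur and Plau) every O3 array was above every air array, which held for 8.81% of all genes. No gene of the 10 had every O3 array below every air array, against 6.62% of all genes. The median difference of the 10 genes was 0.82, against 0.004 over all genes. The difference was positive for 9 of the 10 genes and for 50.9% of all genes.

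**Figure D1:**
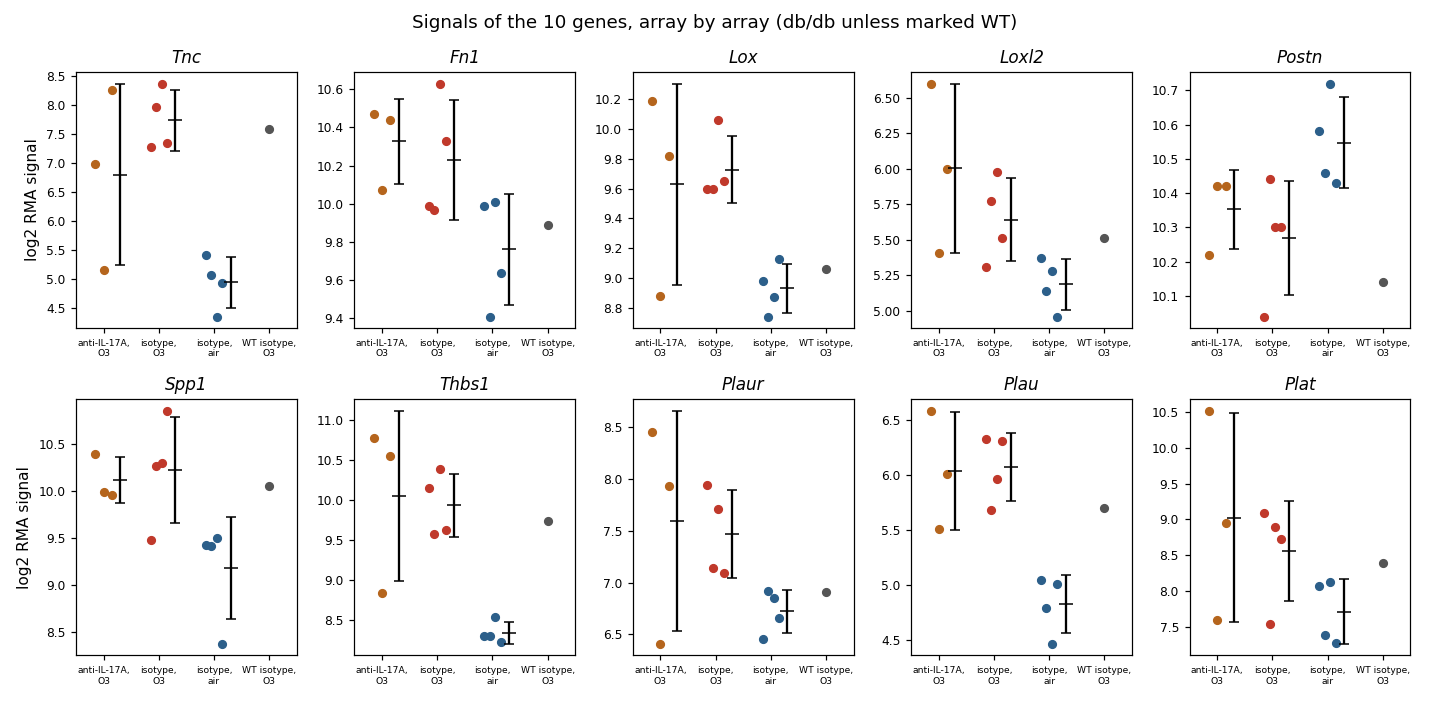
Each panel plots the log2 RMA signal of 1 gene (vertical axis, with its own scale in each panel) in the anti-IL-17A O3, isotype O3 and isotype air arrays of db/db mice and in the single WT O3 array. Points are arrays and the bars beside them are the mean and SD; all 4 isotype O3 arrays lie above all 4 air arrays for Tnc, Lox, Thbs1, Plaur and Plau, and the anti-IL-17A arrays of Tnc spread from 5.16 to 8.26.

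Among the matrix proteins, Tnc had the widest range over the 12 arrays. Tenascin C is a hexameric glycoprotein that is scarce in the healthy adult lung and made at sites of injury. Its signals were 7.27, 7.96, 8.37 and 7.35 in the isotype O3 arrays, against 5.42, 5.07, 4.36 and 4.94 in the isotype air arrays. The groups were separated by almost 2 log2 units, and no array of the O3 group came near the air range. The means were 7.74 ± 0.52 and 4.95 ± 0.44 (SD, n = 4 each), a difference of 2.79 with an SE of 0.550, or 6.93-fold (limma adjusted p = 0.0471). The call of Tnc was lost, at the same direction, on leaving any single array of these 2 groups out of the 12-array fit. Those fits called only 0 to 11 of all genes higher and 0 to 3 lower. In the fit to these 8 arrays, left out in turn after seeing the data, Tnc stayed called each time (limma adjusted p 0.00202 to 0.00768). Over 28 other settings its difference ranged between 2.58 and 2.95 and its adjusted p between 0.00158 and 0.152.

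The 250 bases before the outer start of Tnc are shown because this gene had the largest difference of the 10. They lie on the minus strand at chr4:64047016-64047265 (GRCm38.p6, RefSeq), and capitals mark a GC box (GGGCGG) and a TATA box motif (TATAAA), which begin 167 and 126 bases before the start.
Tnc: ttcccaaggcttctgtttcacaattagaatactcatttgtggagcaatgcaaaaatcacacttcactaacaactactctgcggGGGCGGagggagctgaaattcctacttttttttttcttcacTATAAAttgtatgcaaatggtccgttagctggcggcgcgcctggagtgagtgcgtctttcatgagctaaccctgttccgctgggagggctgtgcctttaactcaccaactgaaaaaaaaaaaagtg
Both strands were searched for these 2 motifs and for TGACTCA, the AP-1 site, and no match overlapped another kind of motif. RefSeq windows were at hand for 4 of the 10 genes (Tnc, Postn, Spp1 and Plaur), 7 windows in all. Of the 32851 windows of this length for all genes, 32.7% held GGGCGG, 12.4% TATAAA and 4.46% TGACTCA.

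Thbs1 had the second largest difference. Thrombospondin 1 is stored in platelets, made by many injured cells and known to activate latent TGF-beta. It was at 10.15, 9.57, 10.38 and 9.62 in the isotype O3 arrays, against 8.30, 8.30, 8.54 and 8.22 in the air arrays. The groups were apart by about 1 log2 unit at their nearest arrays, and the air arrays were tight. The means were 9.93 ± 0.40 and 8.34 ± 0.14 (SD, n = 4 each), a difference of 1.59 (SE 0.369, 3.01-fold), with a limma adjusted p of 0.074 in the fit to all arrays and of 0.00251 when only these 8 arrays were fitted. Of the platelet markers, 9 of the 10 measured had a negative difference and 0 were called, where 50.9% of all genes had a positive difference. Their mean signal was 5.54 to 6.04 in the O3 arrays and 5.98 to 6.23 in the air arrays. The part of platelets in the values of Thbs1 was not tested.

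Spp1 encodes osteopontin, a phosphoprotein made by macrophages and epithelial cells that binds CD44 and integrins. Its signals were 9.48, 10.27, 10.30 and 10.86 in the isotype O3 arrays, against 9.43, 9.42, 9.50 and 8.37 in the isotype air arrays. O3 replicate 1 lay within the air range, and air replicate 4 lay about 1 unit below the other 3 air arrays. The difference of the means (10.23 ± 0.57 and 9.18 ± 0.54, SD, n = 4 each) was 1.05 (SE 0.313, limma adjusted p = 0.139), and it was 0.78 without air replicate 4 and 1.30 without O3 replicate 1. Its probe set was named by the deposited annotation alone, with no second annotation to set beside it.

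Fn1 and Postn, both bright in every group, moved least among the matrix proteins. Fibronectin, the main adhesive protein of the provisional matrix, was at 9.99, 9.97, 10.63 and 10.33 after O3, against 9.99, 9.41, 10.01 and 9.64 in air. These groups overlapped, and the difference of 0.47 (SE 0.185) did not pass (limma adjusted p = 0.26). Postn, which encodes periostin, a matricellular protein of fibroblasts and of airway epithelium in type 2 inflammation, was the 1 gene of the 10 with a negative difference. It had 10.04, 10.44, 10.30 and 10.30 after O3, against 10.58, 10.46, 10.72 and 10.43 in air. O3 replicate 2 lay just above air replicate 4, so the groups overlapped by 1 pair of arrays, and the difference of −0.28 (SE 0.106) had a limma adjusted p of 0.238.

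Lox encodes lysyl oxidase, which oxidises lysines of collagen and elastin as the first step of crosslinking. It was at 9.60, 9.60, 10.06 and 9.65 in the isotype O3 arrays, against 8.98, 8.74, 8.87 and 9.13 in the air arrays. The groups did not overlap, and O3 replicate 3 stood above the other 3 O3 arrays. The means were 9.73 ± 0.22 and 8.93 ± 0.17 (SD, n = 4 each), a difference of 0.80 (SE 0.242, 1.74-fold), with a limma adjusted p of 0.147 in the fit to all arrays and of 0.00908 in the fit to these 8 arrays. Loxl2, a related oxidase that acts on collagen IV of basement membranes, had 5.31, 5.77, 5.98 and 5.51 after O3, against 5.37, 5.14, 5.28 and 4.96 in air. O3 replicate 1 was within the air range, and the difference of 0.46 (SE 0.234) did not pass (limma adjusted p = 0.398).

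Of the fibrinolysis genes, Plau had the smallest SE and passed the test. Plau encodes urokinase, the plasminogen activator that works at cell surfaces. Its signals were 6.32, 5.68, 5.96 and 6.31 in the isotype O3 arrays, against 5.05, 4.79, 4.47 and 5.01 in the air arrays. Every O3 array was at least 0.6 above the highest air array. The means were 6.07 ± 0.31 and 4.83 ± 0.27 (SD, n = 4 each), a difference of 1.24 (SE 0.234), or 2.36-fold (limma adjusted p = 0.0433). As for Tnc, the call was lost on leaving any single array of these 2 groups out of the 12-array fit. There 0 to 11 of all genes were called higher and 0 to 3 lower. The call of Plau was kept without any 1 array in the fit to these 8 arrays (limma adjusted p 0.00325 to 0.0234). Its adjusted p ranged between 0.00325 and 0.141 over 28 other settings.

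Plaur encodes the urokinase receptor, a GPI-anchored protein that holds urokinase on the cell surface. It was at 7.94, 7.14, 7.71 and 7.09 in the isotype O3 arrays, against 6.46, 6.92, 6.85 and 6.66 in the air arrays. The groups did not overlap, but O3 replicates 2 and 4 were within 0.25 of the highest air array. The difference was 0.75 with an SE of 0.378 (limma adjusted p = 0.386, and 0.0561 in the fit to these 8 arrays). The 250 bases before the RefSeq start used for Plaur, on the plus strand at chr7:24462233-24462482 (GRCm38.p6), are shown because this was the single window among the 7 that held an AP-1 site. Capitals mark 3 GC boxes that follow or overlap each other, the first beginning 111 bases before the start, and the AP-1 site, which begins 69 bases before it. This start is inside the outer bounds of the gene in RefSeq.
Plaur: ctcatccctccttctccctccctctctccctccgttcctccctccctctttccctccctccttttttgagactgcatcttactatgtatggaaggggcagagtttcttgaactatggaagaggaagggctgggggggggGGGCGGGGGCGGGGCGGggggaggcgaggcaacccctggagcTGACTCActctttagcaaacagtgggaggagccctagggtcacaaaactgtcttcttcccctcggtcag
The window at the outer start of Spp1 held TATAAA, 211 bases before the start, and that of Postn held none of the 3 motifs, while the second window of Postn held TATAAA 26 bases before its start. These matches describe letters of the reference sequence only.

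Plat encodes tissue plasminogen activator, which is made by endothelial and other cells and works best on fibrin. Its signals were 9.09, 7.54, 8.90 and 8.73 in the isotype O3 arrays, against 8.07, 7.38, 8.13 and 7.27 in the air arrays. O3 replicate 2 lay within the air range and the other 3 lay above it. The difference of 0.85 had the largest SE of the 10 genes, 0.554, and a 95% confidence interval of −0.37 to 2.08, which spans values from a small decrease to more than a 4-fold increase (limma adjusted p = 0.516).

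The count of called genes moved with the scaling, the arrays used and the fit. It was 0 after quantile normalisation, 0 with array medians subtracted and 0 without the 3 arrays high in Ucp1. With only the 8 isotype arrays in the fit, 4 of the 10 genes were called higher (Tnc, Lox, Thbs1 and Plau) and 0 lower, against 4.87% of all genes higher and 2.92% lower. In the fit to all arrays 3 of the 10 genes were higher at an adjusted p under 0.1, against 1.76% of all genes.

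**Figure D2:**
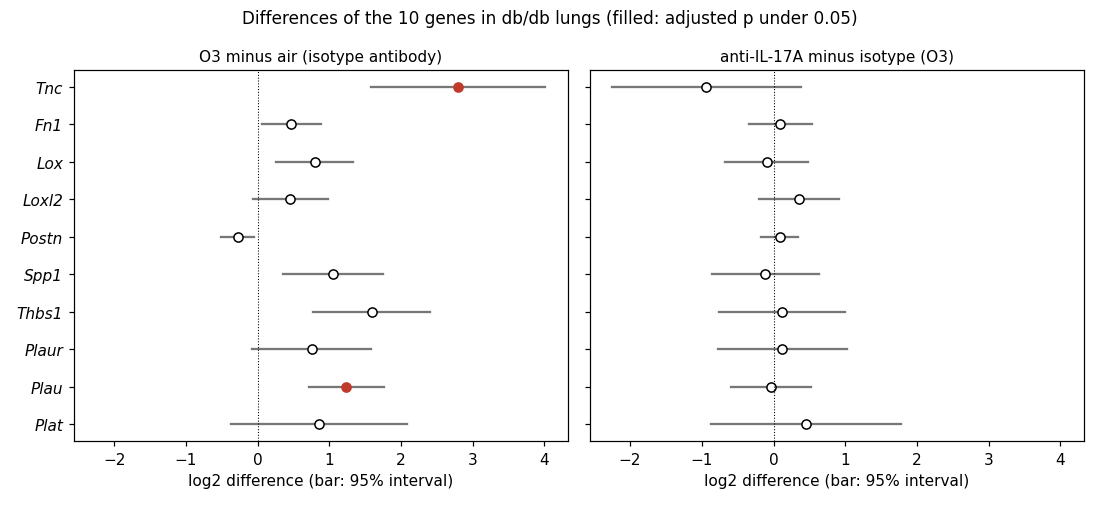
Log2 differences of the 10 genes (horizontal axis) with their unadjusted 95% confidence intervals, for O3 minus air under the isotype antibody (left panel) and anti-IL-17A minus isotype after O3 (right panel), both from the limma fit to all arrays. Filled points mark an adjusted p under 0.05: Tnc at 2.79 and Plau at 1.24 in the left panel and none in the right panel, where every interval holds 0.

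The second comparison asked whether blocking IL-17A changed these genes after O3 in db/db mice. None of the 10 genes was called in either direction, and 0 of all 21585 genes were (0%). Likewise 0 of the 10 genes had antibody arrays all above or all below the isotype arrays, against 2.64% and 1.42% of all genes. At an unadjusted p under 0.05 the counts were 0 of the 10 genes and 996 of all genes (4.61%). The median difference of the 10 genes was 0.09, against 0.036 over all genes, and their adjusted p ran from 0.832 to 0.975 (limma). The antibody arrays spread more widely than the isotype arrays in 7 of the 10 genes, although they were fewer. The share of all genes for which this held was not counted, so it cannot be read as particular to this list.

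Tnc had the most negative difference. It was at 6.98, 5.16 and 8.26 in the anti-IL-17A O3 arrays, against 7.27, 7.96, 8.37 and 7.35 in the isotype O3 arrays. Replicate 2 fell in the range of the air arrays, replicate 1 just below the isotype O3 range and replicate 4 near its top. The means were 6.80 ± 1.56 (SD, n = 3) and 7.74 ± 0.52 (SD, n = 4), and the difference of −0.94 had a 95% confidence interval of −2.25 to 0.38 (limma adjusted p = 0.832). It was −0.12 without replicate 2 and −1.67 without replicate 4, so its size rested on single arrays.

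In the fibrinolysis genes replicate 1 was the highest and replicate 2 the lowest of the antibody arrays. Plat was at 10.52, 7.60 and 8.95 in the anti-IL-17A arrays, against 9.09, 7.54, 8.90 and 8.73 in the isotype O3 arrays. Replicate 1 was above every isotype array, by more than 1 unit, and replicate 2 was next to the lowest of them. The difference was 0.46 (95% confidence interval −0.87 to 1.78, limma adjusted p = 0.866), and it was −0.29 without replicate 1. Plaur was at 8.45, 6.41 and 7.93 with anti-IL-17A, against 7.94, 7.14, 7.71 and 7.09 with the isotype antibody. Here replicate 2 was below all 4 isotype arrays and replicate 1 above all 4, and the difference was 0.12 (95% confidence interval −0.78 to 1.02, limma adjusted p = 0.947). Plau had 6.58, 5.51 and 6.01 with anti-IL-17A, against 6.32, 5.68, 5.96 and 6.31 with the isotype antibody. The means of Plau, 6.03 ± 0.53 (n = 3) and 6.07 ± 0.31 (n = 4, SD), differed by −0.03, with an interval of −0.59 to 0.52 (limma adjusted p = 0.975).

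Thbs1 followed the same order of arrays. It had 10.77, 8.83 and 10.55 in the anti-IL-17A arrays, against 10.15, 9.57, 10.38 and 9.62 in the isotype O3 arrays. Replicates 1 and 4 were above all 4 isotype arrays and replicate 2 below all 4, which left a difference of 0.12 (95% confidence interval −0.76 to 1.0, limma adjusted p = 0.947). Spp1 varied less, with 10.40, 9.99 and 9.96 under anti-IL-17A, against 9.48, 10.27, 10.30 and 10.86 under the isotype antibody. Its antibody arrays all lay inside the isotype O3 range (difference −0.11, limma adjusted p = 0.94).

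The crosslinking enzymes differed in sign. Loxl2 had 6.60, 5.41 and 6.00 with anti-IL-17A, against 5.31, 5.77, 5.98 and 5.51 with the isotype antibody, a difference of 0.36 (95% confidence interval −0.20 to 0.92, limma adjusted p = 0.832), which was 0.06 without replicate 1 and 0.66 without replicate 2. Lox had 10.19, 8.88 and 9.82, against 9.60, 9.60, 10.06 and 9.65, a difference of −0.10 (interval −0.68 to 0.48, limma adjusted p = 0.932). In both genes replicate 1 was the highest of the 7 O3 arrays of db/db mice, and both intervals held 0.

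Fn1 and Postn were the steadiest of the 10 under the antibody. Fn1 had 10.47, 10.07 and 10.44 with anti-IL-17A, against 9.99, 9.97, 10.63 and 10.33 with the isotype antibody, and Postn had 10.22, 10.42 and 10.42, against 10.04, 10.44, 10.30 and 10.30. All antibody arrays were inside the isotype O3 range in both genes. The 95% confidence intervals, −0.35 to 0.54 for Fn1 and −0.17 to 0.34 for Postn, were the narrowest of the 10. They hold for the fit to all arrays: the difference of Postn was 0.09 there and 0.15 (SE 0.122) without anti-IL-17A replicate 1.

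Over the list, anti-IL-17A replicate 2 was the lowest of the 7 db/db O3 arrays in 5 of the 10 genes (Tnc, Lox, Thbs1, Plaur and Plau), against 15.4% of all genes. It was within or below the range of the 4 air arrays in 5 genes (Tnc, Lox, Postn, Plaur and Plat), against 73.3% of all genes. Replicate 1 was the highest of the 7 in 6 genes (Lox, Loxl2, Thbs1, Plaur, Plau and Plat), against 38.8% of all genes. These arrays were singled out after their values were seen. Other genes moved with the same arrays. The 17 markers of injured or transitional epithelium averaged 8.87, 7.57 and 8.57 in anti-IL-17A replicates 1, 2 and 4, against 8.09 to 8.71 in the isotype O3 arrays and 7.12 to 7.53 in the air arrays. The 13 ciliated cell markers averaged 5.19, 6.75 and 5.31 in the same 3 replicates, against 5.42 to 6.02 in the isotype O3 arrays and 6.81 to 6.98 in the air arrays. Replicate 2 thus lay near the air arrays in both lists. The 14 neutrophil markers averaged 6.24, 8.08 and 6.11 with anti-IL-17A, against 6.35 to 6.85 with the isotype antibody after O3 and 6.04 to 8.15 in air. The part of these markers, and of the brown fat signal in replicate 1, in the values of the 10 genes was not tested.

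**Figure D3:**
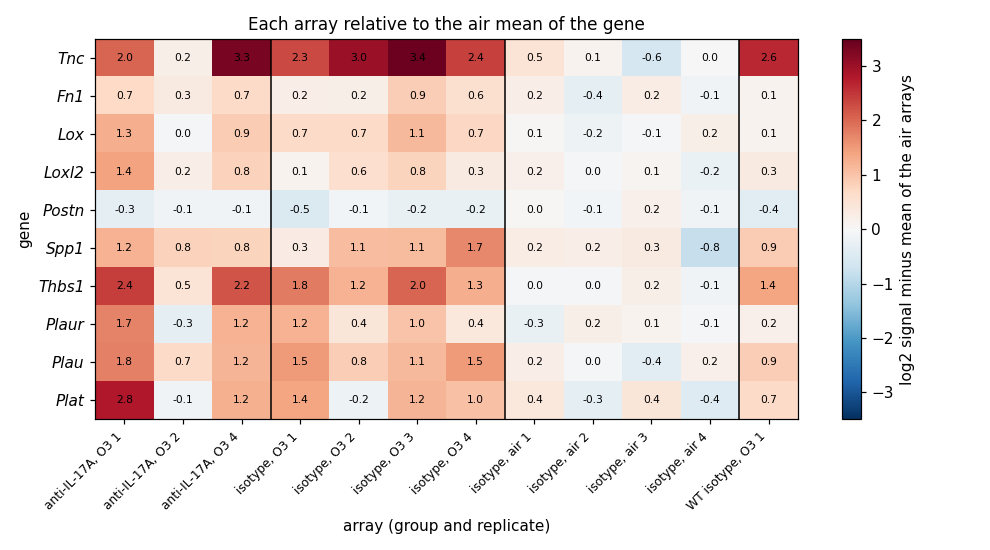
Signal of each gene (rows) in each of the 12 arrays (columns, by group and replicate) minus the mean of the 4 air arrays of that gene, on the log2 scale given by the colour bar, with the value printed in each cell. The column of anti-IL-17A replicate 2 is paler than those of replicates 1 and 4 for Tnc, Lox, Thbs1, Plaur and Plat, and Postn is the row with no red cell among the O3 arrays.

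The anti-IL-17A O3 arrays were also set against the isotype air arrays. This comparison shares its air arrays with the first and its antibody arrays with the second, and it differs in both exposure and antibody. None of the 10 genes was called, and 0 of all genes were (0%). At an unadjusted p under 0.05 there were 7 of the 10 genes, against 3581 of all genes (16.6%). All 3 antibody arrays were above all 4 air arrays in 5 genes (Fn1, Loxl2, Spp1, Thbs1 and Plau), against 7.11% of all genes, and below all 4 in Postn, against 4.89% of all genes. The differences from air were 1.85 with anti-IL-17A and 2.79 with the isotype antibody for Tnc, 1.71 and 1.59 for Thbs1, 1.20 and 1.24 for Plau, and 0.94 and 1.05 for Spp1. Those of Plat were 1.31 and 0.85, and those of Loxl2 0.81 and 0.46. The antibody values of Plat, Tnc and Loxl2 rested on single arrays. Plat was 0.56 without anti-IL-17A replicate 1, which is below its isotype value, and 2.02 without replicate 2. Tnc was 2.67 without replicate 2 and 1.12 without replicate 4, and Loxl2 was 0.51 without replicate 1. The limma adjusted p with anti-IL-17A was 0.152 for Plau, 0.165 for Thbs1 and 0.211 or more for the other 8 genes. The count rested on replicate 2: without it 7 of the 10 genes were called higher (Tnc, Lox, Loxl2, Thbs1, Plaur, Plau and Plat), with 1804 of all genes called higher and 917 lower.

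The isotype O3 arrays of db/db mice were set beside the single WT O3 array, for which no test can be made. All 4 db/db arrays were above the WT array in 3 of the 10 genes, against 22.2% of all genes, and below it in 0, against 17.7% of all genes. These 3 genes were Lox (9.60 to 10.06 in db/db, against 9.06 in WT), Plaur (7.09 to 7.94 in db/db, against 6.91 in WT) and Fn1 (9.97 to 10.63 in db/db, against 9.89 in WT). In the other 7 the WT array was inside the db/db O3 range. The db/db arrays had 7.27 to 8.37 for Tnc, against 7.58 in WT, and 9.57 to 10.38 for Thbs1, against 9.73 in WT. They had 5.68 to 6.32 for Plau, against 5.70 in WT, and 9.48 to 10.86 for Spp1, against 10.06 in WT. For the remaining 3 genes the ranges were 5.31 to 5.98 for Loxl2, against 5.51 in WT, 10.04 to 10.44 for Postn, against 10.14 in WT, and 7.54 to 9.09 for Plat, against 8.39 in WT.

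Partners of the 10 genes were taken from lists of the same pathways, chosen with earlier results of these data known. Of the 18 other fibrinolysis genes reported here, 0 were called after O3 in db/db mice, with a median difference of 0.22. The smallest p among them was that of Fgg, which encodes the gamma chain of fibrinogen, the substance from which fibrin forms. It was at 6.25, 6.82, 5.85 and 7.09 in the isotype O3 arrays, against 4.42, 4.12, 4.35 and 4.80 in the air arrays, a difference of 2.08 (SE 0.516) that did not pass (limma adjusted p = 0.0905). The groups of Fgg did not overlap, and its anti-IL-17A arrays were at 6.77, 4.10 and 6.50, of which replicate 2 lay below every air array. Serpine2, which encodes protease nexin 1, differed by 0.13 (adjusted p = 0.743), Anxa2, a cell surface receptor for plasminogen and tissue plasminogen activator, by 0.34 (adjusted p = 0.368), and Plg, whose product plasminogen comes from the liver, by −0.04 at a signal of 3.57 ± 0.10 after O3 and 3.60 ± 0.11 in air (SD, n = 4 each, adjusted p = 0.909).

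Of 17 other crosslinking genes, 0 were called, with a median difference of 0.37. Tgm1, a transglutaminase of epithelial cells, had the smallest p and averaged 7.29 ± 0.50 after O3 and 5.19 ± 0.61 in air (SD, n = 4 each), a difference of 2.11 (limma adjusted p = 0.0656). Tgm2, the tissue transglutaminase, differed by 0.65 (adjusted p = 0.313). Loxl1, the lysyl oxidase of elastic fibres, differed by 0.74 (adjusted p = 0.129), and Loxl4 by 0.57 (adjusted p = 0.457). None of these passed the test.

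The other 31 matricellular and provisional matrix genes showed no call in either direction. Their median difference was −0.02, and it was 0.02 and 0.01 when the arrays were quantile normalised or centred on their medians, so it has no set sign. Cyr61 (Ccn1) and Ctgf (Ccn2), secreted proteins that follow YAP activity, differed by 0.76 (adjusted p = 0.458) and 0.56 (adjusted p = 0.682), and Sparc, a collagen chaperone, by −0.08 (adjusted p = 0.759). Tnn, a relative of tenascin C, had the smallest p of this list and a negative difference, −0.29 (adjusted p = 0.111).

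Of 20 receptors of the secreted proteins, 0 were called and the median difference was 0.08. The integrin chains Itgb8, Itgb6 and Itgav, whose dimers bind latent TGF-beta, differed by 0.69 (adjusted p = 0.133), 0.45 (adjusted p = 0.154) and 0.25 (adjusted p = 0.341). Itga9, a chain of the tenascin C and osteopontin receptor, differed by 0.19 (adjusted p = 0.536), and Cd44 by 0.33 (adjusted p = 0.206). Of 15 TGF-beta ligands, receptors and regulators, 1 was called higher and 0 lower. This was Tgfb2, at 8.36, 7.91, 8.09 and 8.02 after O3, against 7.35, 7.28, 7.33 and 7.34 in air, a difference of 0.77 (SE 0.128, limma adjusted p = 0.0385), whose adjusted p ranged between 0.0216 and 0.136 without 1 array. Tgfb1 differed by 0.02 (adjusted p = 0.955), with a changing sign under other scalings.

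Markers of the cells that could hold these transcripts were read in the same contrast. Of 16 fibroblast markers 0 were called, and their mean signal was 7.45 to 7.86 after O3 and 7.57 to 7.88 in air. Of 12 smooth muscle and myofibroblast markers 0 were called (7.29 to 7.79 after O3 and 7.16 to 7.87 in air), and of 16 monocyte and recruited macrophage markers 0 were called (5.93 to 6.55 after O3 and 6.23 to 6.46 in air). The ranges of these 3 lists overlapped between O3 and air. Also, 0 were called of 12 endothelial markers (median difference −0.09) and of 13 alveolar macrophage markers (−0.06). Of 12 alveolar type 1, 13 alveolar type 2 and 10 mesothelial markers 0 were called (median differences −0.06, −0.10 and −0.08). Among the 17 injured or transitional epithelium markers 5 were called higher and 0 lower, with a median difference of 1.05 and all 17 differences positive; 2 of its genes, Itgb6 and Krt19, also stand in the receptor and mesothelial lists. They included Tnip3, an inhibitor of NF-kB signalling (difference 2.09, adjusted p = 0.0373), the keratin Krt7 (1.06, adjusted p = 0.0389), the lipocalin Lcn2 (1.71, adjusted p = 0.0463) and the EGF receptor ligand Areg (1.53, adjusted p = 0.0471). Of 14 club cell markers 3 were called lower and 0 higher, led by the secretoglobin Scgb3a2 (−1.31, adjusted p = 0.0397), with Aldh1a1 (−0.50, adjusted p = 0.0373) and Cbr2 (−0.57, adjusted p = 0.0466). Of 13 ciliated cell markers 1 was called lower, Hydin (−2.12, adjusted p = 0.0373), and all 13 differences were negative, with a median of −1.37. Without 1 array the adjusted p of these 8 marker genes reached 0.136 to 0.153. The epithelial lists moved in the same contrast as Tnc and Plau, and their part in those differences was not tested.

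**Figure D4:**
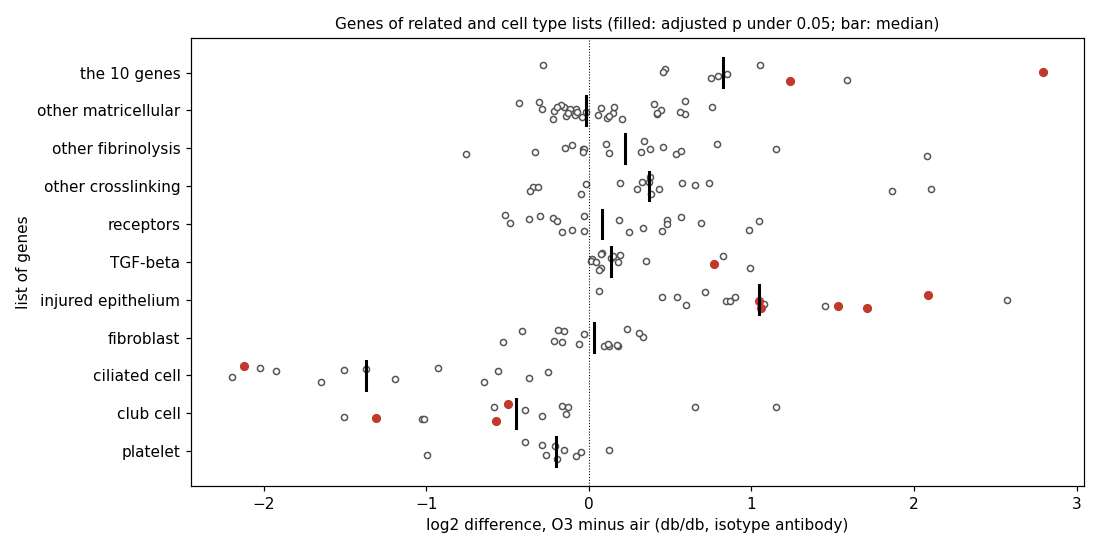
Log2 differences between O3 and air arrays of db/db mice under the isotype antibody (O3 minus air, horizontal axis), of the measured genes of 11 lists (rows), 1 point a gene. Filled points passed an adjusted p under 0.05 and the black bar is the median of the list, which is 0.82 for the 10 genes, 1.05 for injured or transitional epithelium and −1.37 for ciliated cell markers; vertical scatter within a row has no meaning.

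For the 4 genes with the widest ranges over the 12 arrays, the genes with the most similar profile were found by the mean absolute difference between signals centred on each gene's own mean, among 20382 genes. Tnc was nearest to Il6 (0.46), Fam3b (0.51) and Mt2 (0.52), where a gene that does not vary would be at 1.31 from Tnc. Il6 encodes a cytokine and Mt2 a metallothionein. Thbs1 was nearest to Myc (0.18) and the zinc importer gene Slc39a14 (0.20), against 0.81 for a gene that does not vary. Plat was nearest to Zfand2a (0.16), Rnf144b (0.17) and Ptbp1 (0.18), against 0.72, and Spp1 to Taco1 (0.27), Mfsd11 (0.28) and B4galt5 (0.28), against 0.50. Within the list the nearest gene was Thbs1 for Tnc (0.66), Plaur for both Plat (0.37) and Thbs1 (0.39), and Loxl2 for Spp1 (0.33). These distances describe 12 arrays that share groups, and the profiles of Plat and Thbs1 included the high value of anti-IL-17A replicate 1.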

How the data were processed

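The authors hybridised lung RNA to Affymetrix mouse gene arrays and deposited log2 RMA signals of 35556 probe sets in 12 arrays. Per the labels the tools were oligo, RMA and limma, with no versions given, and the genome build is not given in the sources used here. The 2 deposited tables held the same signals (largest difference 0). One of them also holds the authors' own comparisons (fold changes and p-values), which were not used. Of 25254 probe sets with a symbol, 20686 matched the same single gene in the deposited and the platform annotation, 2385 were named by the deposited table alone, 1858 matched several genes and 325 conflicted and were left out. A gene was read by its probe set of highest mean over the 12 arrays, single-gene probe sets first, which gave 21585 genes. For 1202 of these no single-gene probe set existed.

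Differences were fitted with limma 3.58.1 in R 4.3.3, with 1 mean for each condition over all 12 arrays. This left 8 residual degrees of freedom. The two-sided tests used variances moderated over all genes, which adds to these degrees of freedom. P-values were adjusted by Benjamini-Hochberg over all genes, and genes were called at an adjusted p under 0.05. The script was tested on simulated data. The number of arrays limits the precision. The alternatives were other scalings, filters, probe set rules, variance models, a replicate block, fits without 1 array and fits without the 3 arrays high in Ucp1. A fit to both isotype groups alone without each array in turn was chosen after seeing the data.

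The 10 genes and all lists were chosen with earlier results of these data known. Genes besides the 10 were picked from each list as up to 4 genes past the threshold or else the gene of smallest p. Partners fixed by name were added, with the 3 genes most similar in profile to each of the 4 genes of widest range. Not all of these are printed: the genes of smallest p in cell type lists without a call are given no values. Genes without a single-gene probe set are not named. A further gene that the rule takes is not reported here and was left out of its list.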

Additional observations from a re-analysis of the deposited data

Results flagged for a closer look

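An array was listed where the highest or the lowest of 4 arrays of a group stood apart from the other 3 by more than Dixon's 95% critical value. This held in 6 of 98 groups of 4 tested over the named genes, and in 2 of 20 for the 10 repair genes, where chance alone lists about 1 group in 20. Lox was at 10.06 in isotype O3 replicate 3, with the other 3 O3 arrays at 9.60 to 9.65. Spp1 was at 8.37 in air replicate 4, with the other 3 air arrays at 9.42 to 9.50. Among the other named genes, Cbr2 was at 10.79 in isotype O3 replicate 2 (the other 3 at 11.17 to 11.23) and Tgfb1 at 6.58 in the same array (the other 3 at 6.64 to 6.66). Aldh1a1 was at 11.33 in air replicate 1 (the other 3 at 11.50 to 11.52) and Tnn at 4.29 in air replicate 3 (the other 3 at 4.48 to 4.50).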

How the results depend on the processing

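For O3 against air, all 10 genes kept the direction of their difference over 28 alternatives each, but the count of 2 called genes moved. It was 0 after quantile normalisation, 0 with array medians subtracted, 0 with no moderation of the variance, 0 without the 3 arrays high in Ucp1, 6 with array weights and 4 when the fit held just the O3 and air groups. With the replicate block it was 1 (Plau). Same-numbered O3 and air arrays deviated from their groups with correlations of −0.41 to 0.29. For replicates 1, 2 and 4 the correlations were 0.43, 0.44 and −0.13 between anti-IL-17A and isotype O3 arrays. Between anti-IL-17A and air arrays they were −0.17, −0.15 and 0.12. So few values cannot tell whether the numbers pair the arrays. Leaving out 1 array gave 0 to 6: it was 0 for each of the 8 arrays in the fit to all arrays, 3 without anti-IL-17A replicate 1, and 4, 5 or 6 in the fit to both groups. Without 1 of the 8 arrays, the fit to all arrays called 0 to 11 of all genes higher and 0 to 3 lower. The fit to both groups then called 413 to 1821 of all genes higher and 318 to 860 lower. The counts of all genes called higher and lower, 129 and 96, became 76 and 72 after quantile normalisation, 10 and 10 with medians subtracted, 0 and 0 with no moderation, 1445 and 843 with array weights, 1052 and 631 with only both groups, 169 and 65 with the block, 483 and 328 without anti-IL-17A replicate 1 and 0 and 1 without the arrays high in Ucp1. A cause was not tested for any of these.

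Partner genes close to 0 changed sign. Plg was 0.0112 and Sparc 0.0203 after quantile normalisation, and Tgfb1 was −0.0434 after it and −0.0090 without the arrays high in Ucp1. Leaving out 1 array gave −0.0804 to 0.0061 for Plg, −0.0020 to 0.2034 for Serpine2 and −0.0205 to 0.0924 for Tgfb1 (−0.0012 without air replicate 3).

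For anti-IL-17A against isotype after O3 the count was 0 under all alternatives run, and 4 of the 10 genes (Tnc, Fn1, Loxl2 and Postn) kept their direction over 18 alternatives each, with ranges of −1.67 to −0.12, 0.01 to 0.23, 0.01 to 0.66 and 0.01 to 0.16. Plau was 0.0330 after quantile normalisation and 0.0012 with medians subtracted. Without the arrays high in Ucp1 Thbs1 was −0.34, Plaur −0.43 and Plat −0.24. Leaving out 1 array gave −0.24 to 0.73 for Thbs1, −0.30 to 0.72 for Plaur, −0.29 to 1.17 for Plat, −0.38 to 0.28 for Lox, −0.31 to 0.23 for Plau and −0.36 to 0.10 for Spp1. For anti-IL-17A O3 against isotype air the count of 0 became 2 with array weights (Thbs1 and Plau). With those weights 222 of all genes were called higher and 176 lower. The count was 0 to 7 without 1 array. The 7 were called without anti-IL-17A replicate 2, where 1804 of all genes were called higher and 917 lower. The number of genes with the WT array outside the db/db O3 range was 3, and 4 when the probe sets of each gene were averaged. The other 3 alternatives run gave 3. Arrays give no read depth, and the 3 or 4 arrays of a group limit the precision.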
